A study of Mus musculus with 21 samples.

Results

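The genes described here are 7 that move, store or sense zinc in the cell: the importers Slc39a14, Slc39a1 and Slc39a10, the exporter Slc30a1, the metallothioneins Mt1 and Mt2, and the transcription factor Mtf1. They were chosen by symbol among the 45706 genes of the count table, with earlier results of these data known. All 7 were measured in all 21 libraries. Slc39a14 was picked because it rose strongly at 1 d after injury, so its levels in sham and 1 d microglia are given as a description with no test.

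Zinc enters the cytosol through the ZIP family (Slc39a genes) and leaves it, toward the outside or into vesicles, through the ZnT family (Slc30a genes). Metallothioneins are small cysteine-rich proteins that bind zinc and copper and are known as early stress genes in injured brain, where Mt1 and Mt2 are found in glia and Mt3 in astrocytes and neurons. Mtf1 encodes the factor that senses free zinc and binds metal response elements in the promoters of Mt1, Mt2 and Slc30a1, while Slc39a14 (ZIP14), which also carries iron and manganese, is best known as an importer raised in the liver by inflammation.

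Male mice on the C57BL/6 background, 17 to 24 weeks old, received a controlled cortical impact (CCI), a mechanical injury of the exposed cortex, and cells from a tissue block around the lesion were sorted for RNA-seq. Sham microglia came from wild-type (WT) mice that had the craniotomy but no impact, and the time of their collection is not given in the labels. Microglia (CD45low CD11b+) were taken from WT and Fgg390-396A mice at 1 d and 7 d after CCI, and infiltrating myeloid cells (CD45hi CD11b+) from both genotypes at 1 d only. Fgg390-396A mice (Fgg below) carry a fibrinogen gamma chain altered where it binds the CD11b/CD18 integrin. Each of the 7 groups held 3 libraries, each pooled from 2 brains, with 40000 microglia or 25000 myeloid cells sorted per library, and no Fgg sham group was analysed here.

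The libraries held between 18896957 and 51875767 scaled counts (median 27001646), of which 43.0 to 58.5% fell on ribosomal RNA genes. Levels are given as CPM, a gene's count scaled to 1000000 counts of its TMM-normalised library. The table was taken to hold salmon counts from which gene length is divided out, as its name and its values that are not whole imply. The option used is not stated in the labels, and comparisons of level between genes, shares included, rest on it. A count of 3 corresponded to 0.0448 to 0.158 CPM, a floor that covers counting error only. Where the libraries of groups are said not to overlap, this is a description. The share of all genes without overlap was not computed. Fewer cells of a type and less RNA per cell cannot be told apart in such bulk samples. The microglia marker genes (10, among them P2ry12 and Tmem119) summed to 4246 CPM or more in every microglia library and to at most 1145 CPM in myeloid libraries, while the 9 blood monocyte markers summed to at most 149 CPM in microglia and at least 1923 CPM in myeloid cells. The 10 neutrophil markers summed to 105 to 870 CPM in microglia and to 2774 to 13216 CPM in myeloid cells. In every library that was more than the sum of the monocyte markers. Ccr2, a monocyte receptor, was uneven among the 1 d microglia: it stood at 27.8 CPM in WT library 1 and 27.7 CPM in Fgg library 1, against 1.41 to 5.27 CPM in the other libraries of those groups.

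The promoters of the genes with matches to the metal response element are shown first, since they are the sequences through which Mtf1 is known to act. RefSeq promoter windows (GRCm38.p6, 250 bases before to 50 after each annotated start) were found for 6 of the 7 genes, and Slc39a14 had no entry. Matches to TGCACNC or TGCGCNC on either strand, with overlapping matches merged, are in capitals, and each sequence is given 5′ to 3′ on the plus strand up to 30 bases after the start.
Mt1 (chr8:94178839-94179118): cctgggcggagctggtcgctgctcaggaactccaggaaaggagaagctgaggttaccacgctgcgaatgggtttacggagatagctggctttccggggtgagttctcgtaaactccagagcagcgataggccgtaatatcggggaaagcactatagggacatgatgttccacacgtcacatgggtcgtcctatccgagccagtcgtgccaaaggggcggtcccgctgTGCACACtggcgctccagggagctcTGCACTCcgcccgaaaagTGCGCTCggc
Mt2 (chr8:94172368-94172647): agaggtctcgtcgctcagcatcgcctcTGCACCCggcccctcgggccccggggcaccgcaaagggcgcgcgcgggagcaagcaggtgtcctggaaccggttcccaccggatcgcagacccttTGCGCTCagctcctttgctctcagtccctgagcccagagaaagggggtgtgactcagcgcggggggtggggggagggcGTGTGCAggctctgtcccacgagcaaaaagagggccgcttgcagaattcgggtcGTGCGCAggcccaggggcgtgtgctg
Slc30a1 (chr1:191906531-191906810): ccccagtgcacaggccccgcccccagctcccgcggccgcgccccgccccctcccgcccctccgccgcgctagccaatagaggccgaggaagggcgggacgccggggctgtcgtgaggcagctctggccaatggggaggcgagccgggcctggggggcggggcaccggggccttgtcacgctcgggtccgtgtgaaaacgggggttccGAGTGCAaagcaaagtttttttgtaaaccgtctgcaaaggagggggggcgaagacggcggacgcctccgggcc

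The whole window of Mt2 held 4 matches and that of Mt1 held 3. Relative to the RefSeq start they began at -223, -128, -50 and 4 in Mt2 and at -23, 2 and 20 in Mt1. RefSeq and GENCODE M21 place the starts differently. The Mt2 stretch shown ends at 94172647, before the GENCODE gene start of 94172664. Slc30a1 held 2, the second of them beginning 30 bases after the start, just past the stretch shown. No match was present in the windows of Slc39a1, Slc39a10 (2 windows) or Mtf1. The Slc39a10 windows (46925727 to 46926026 and 46853569 to 46853868) do not hold the gene start of GENCODE M21, 46892852 on the minus strand. Nor does the Mtf1 window (124802299 to 124802598) hold its gene start, 124802104. Sequence at those starts was not searched. Of all 32851 windows in the table, 25.7% held at least 1 match, 6.14% at least 2, 1.31% at least 3 and 0.295% at least 4. A match is a string of letters in a window and was not measured as a binding site.

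Slc39a14 (ENSMUSG00000022094, chromosome 14, 70303469 to 70351425, minus strand) was below 7 other ZIP importers in mean level in sham microglia and above all of them in both genotypes at 1 d. Sham libraries held 3.41, 4.78 and 5.73 CPM, WT 1 d microglia 69.1, 71.9 and 70.5 CPM, and Fgg 1 d microglia 45.1, 81.4 and 75.6 CPM. All 6 libraries at 1 d lay far above the sham libraries, and the lowest of them was Fgg library 1, one of the pair high in Ccr2. On the log2 scale the difference from sham was 3.92 ± 0.23 (SE, n = 3 per group) in WT and 3.86 ± 0.23 in Fgg microglia, and both are descriptions of the property by which the gene was chosen.

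By 7 d the gene had fallen most of the way back, to a mean of 8.59 CPM in WT and 6.10 CPM in Fgg against 4.64 CPM in sham. WT 7 d microglia held 9.08, 8.74 and 7.96 CPM and Fgg 7 d microglia 7.17, 5.17 and 5.95 CPM. WT libraries at 7 d stayed above all sham libraries, while Fgg and sham libraries overlapped. The log2 difference from sham was 0.89 in WT and 0.39 in Fgg microglia, with no test. Relative to 1 d of the same genotype the log2 difference was -3.04 ± 0.22 in WT and -3.46 ± 0.23 in Fgg microglia, again with no test. Between genotypes at 7 d, a comparison that the choice of the gene did not use, the 3 Fgg libraries all lay below the 3 WT libraries, but the log2 difference of -0.49 ± 0.21 had an adjusted p of 1 (edgeR quasi-likelihood test, Benjamini-Hochberg over all genes). In that comparison 0.0378% of the 23815 genes tested passed the call, which between genotypes was an absolute log2 fold change above 1 with an adjusted p under 0.1.

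Infiltrating myeloid cells held an intermediate level of Slc39a14. The WT libraries stood at 28.9, 25.9 and 28.2 CPM and the Fgg libraries at 30.1, 29.3 and 25.5 CPM. These 6 values lay above every 7 d and sham microglia library and below every 1 d one. The 2 genotypes overlapped and differed by 0.03 ± 0.20 on the log2 scale (edgeR, adjusted p = 1), in a comparison where 0.453% of all genes were called. The 9 monocyte markers summed to 1923 to 2290 CPM in these cells and to 33.6 to 149 CPM in 1 d microglia. The neutrophil markers summed to 2774 to 13216 CPM and to 105 to 842 CPM in the same groups. The part of blood cells in the Slc39a14 level of 1 d microglia was not tested.

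The share of Slc39a14 among the ZIP importers shows the same course. It made up 3.70 ± 0.831% (SD, n = 3) of the summed CPM of the ZIP genes in sham microglia, 26.4 ± 4.44% in WT and 27.2 ± 5.14% in Fgg microglia at 1 d, and 6.97 ± 0.658% and 5.08 ± 0.536% at 7 d. In Fgg myeloid cells it was 17.8 ± 0.480%, and the WT myeloid libraries ranged from 13.2 to 18.0%. The other ZIP genes together summed to 121 ± 7.80 CPM in sham, 202 ± 46.0 CPM in WT 1 d and 178 ± 23.8 CPM in Fgg 1 d microglia.

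**Figure D1:**
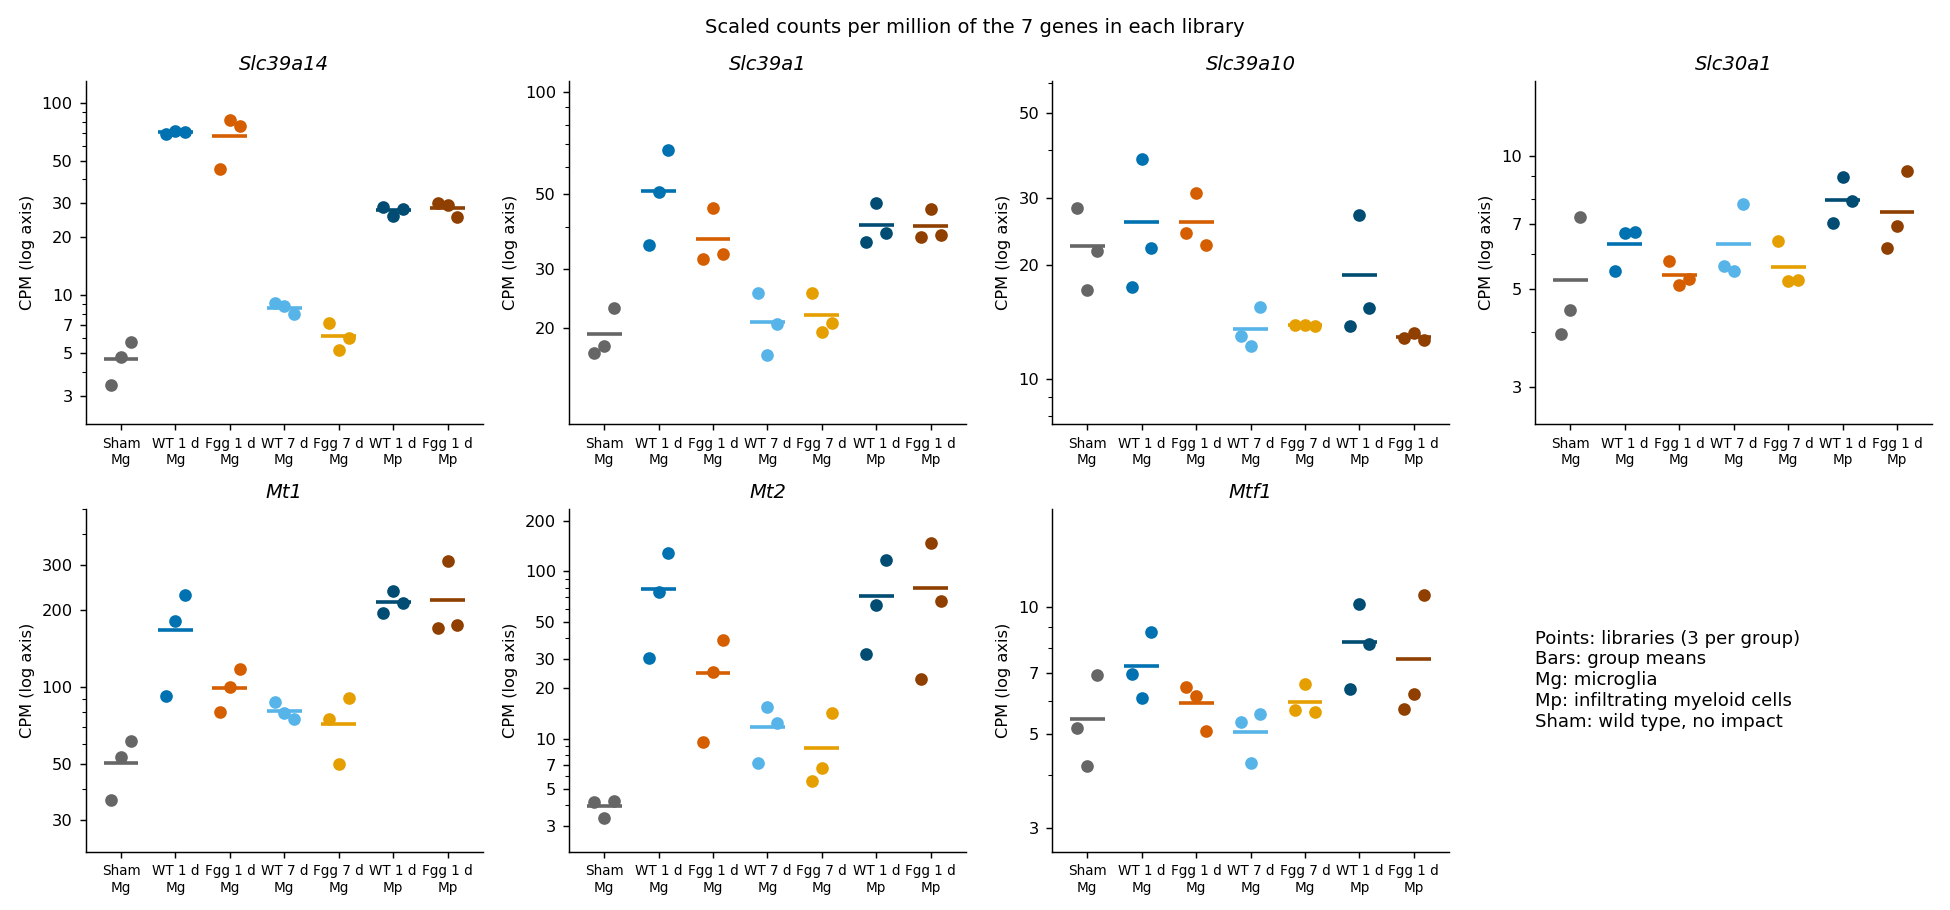
CPM (log axis) of the 7 genes in each library, by group, with 3 points per group and a bar at the group mean; Mg are microglia and Mp infiltrating myeloid cells. Slc39a14 runs from 3.41 to 81.4 CPM and peaks in both 1 d microglia groups, Mt1 and Mt2 are high in 1 d microglia and in myeloid cells, and Slc30a1 (3.95 to 9.24 CPM) and Mtf1 (4.21 to 10.7 CPM) stay within a narrow band.

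Slc39a1 (ZIP1; ENSMUSG00000052310, chromosome 3, 90248172 to 90253612, plus strand), a broadly expressed plasma membrane importer, rose at 1 d in WT microglia. Sham libraries held 16.9, 17.8 and 23.0 CPM against 35.3, 50.6 and 67.3 CPM in WT and 32.0, 45.3 and 33.1 CPM in Fgg microglia at 1 d. Neither 1 d group overlapped with sham. The log2 fold change was 1.41 ± 0.23 in WT (edgeR, adjusted p = 0.00017), which passed the call of an absolute log2 fold change above 1 with an adjusted p under 0.05. In Fgg microglia it was 0.94 ± 0.23 (edgeR, adjusted p = 0.0096), just under the bar on the fold change. Without Fgg library 1, Fgg library 3 or sham library 3 it was 1.03, 1.01 or 1.09 and passed.

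At 7 d Slc39a1 was back at the sham level, with 25.5, 16.7 and 20.6 CPM in WT and 25.4, 19.5 and 20.8 CPM in Fgg microglia, both overlapping with sham. The fall from 1 d was -1.29 ± 0.23 on the log2 scale in WT (edgeR, adjusted p = 0.00084) and -0.75 ± 0.23 in Fgg, where it did not pass (adjusted p = 0.059). Myeloid cells of both genotypes held 35.9 to 47.0 CPM. Slc39a1 lies 7.2 Mb from Fgg on chromosome 3, and its processed pseudogene Slc39a1-ps never exceeded 0.321 CPM.

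Slc39a10 (ZIP10; ENSMUSG00000025986, chromosome 1, 46807544 to 46892852, minus strand), an importer studied mostly in lymphoid cells, did not rise with injury. Its levels were 28.2, 17.2 and 21.7 CPM in sham, 17.5, 38.0 and 22.1 CPM in WT 1 d and 24.3, 30.8 and 22.5 CPM in Fgg 1 d microglia, with full overlap. At 7 d all 6 libraries lay below the sham libraries, at 13.0, 12.2 and 15.5 CPM in WT and 13.9, 13.9 and 13.8 CPM in Fgg, but neither comparison with sham passed. Between 7 d and 1 d the log2 change was -0.93 ± 0.27 in WT (edgeR, adjusted p = 0.032) and -0.90 ± 0.27 in Fgg (adjusted p = 0.058), both short of the call. Leaving out WT 1 d library 1 or 3 moved the WT value to -1.15 or -1.08, past it. Myeloid cells held 12.7 to 15.4 CPM except for WT library 2 at 27.1 CPM.

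Slc30a1 (ZnT1; ENSMUSG00000037434, chromosome 1, 191906767 to 191913247, plus strand), the zinc exporter of the plasma membrane, passed in none of the 11 pairwise comparisons. Its levels were 3.95, 4.48 and 7.27 CPM in sham, 5.50, 6.69 and 6.71 CPM in WT 1 d, 5.77, 5.11 and 5.26 CPM in Fgg 1 d, 5.64, 5.49 and 7.77 CPM in WT 7 d and 6.40, 5.20 and 5.23 CPM in Fgg 7 d microglia. The sham range covered nearly all of the other microglia libraries. Myeloid cells were somewhat higher, at 7.06, 8.95 and 7.89 CPM in WT and 6.19, 6.93 and 9.24 CPM in Fgg, and did not overlap with 1 d microglia of their own genotype, yet neither difference passed. Mtf1 (ENSMUSG00000028890, chromosome 4, 124802104 to 124849800, plus strand) likewise passed in no pairwise comparison. It ran from 4.21 to 6.89 CPM in sham, from 5.10 to 8.74 CPM in 1 d and from 4.27 to 6.57 CPM in 7 d microglia, and from 5.74 to 10.7 CPM in myeloid cells. The highest library was only 2.34 times the lowest for Slc30a1 and 2.54 times for Mtf1, against 23.9 times for Slc39a14 and 43.9 times for Mt2. No alternative analysis called either gene.

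Mt1 (ENSMUSG00000031765, chromosome 8, 94179082 to 94180327, plus strand) and Mt2 (ENSMUSG00000031762, chromosome 8, 94172664 to 94173568, plus strand), neighbours on the same strand, both rose in WT microglia at 1 d. Mt1 stood at 36.2, 53.1 and 61.4 CPM in sham, 92.0, 181 and 229 CPM in WT 1 d and 79.9, 100 and 118 CPM in Fgg 1 d microglia. Mt2 stood at 4.21, 3.38 and 4.22 CPM in sham, 30.4, 75.0 and 129 CPM in WT 1 d and 9.55, 25.2 and 38.9 CPM in Fgg 1 d microglia. For both genes every 1 d library exceeded every sham library. The WT rise was 1.74 ± 0.31 on the log2 scale for Mt1 (edgeR, adjusted p = 0.00043) and 4.30 ± 0.71 for Mt2 (adjusted p = 0.00021), and Mt1, Mt2 and Slc39a1 passed without any one of the 6 libraries and under every other setting run.

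In Fgg microglia Mt2 rose by 2.63 ± 0.67 on the log2 scale (edgeR, adjusted p = 0.013). It lost the call without Fgg library 3 (2.13, adjusted p = 0.077) or without sham library 2 (2.54, adjusted p = 0.062). Mt1 reached 0.98 ± 0.30 (adjusted p = 0.045), just under the bar, and passed without Fgg library 1 (1.12) or sham library 3 (1.15). Of the 6 tested genes 3 passed in WT and 1 in Fgg microglia at 1 d, all upward, where 12.3% and 6.64% of all 23815 genes did (8.06% and 5.49% upward). Both comparisons use the same 3 sham libraries, all WT.

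**Figure D2:**
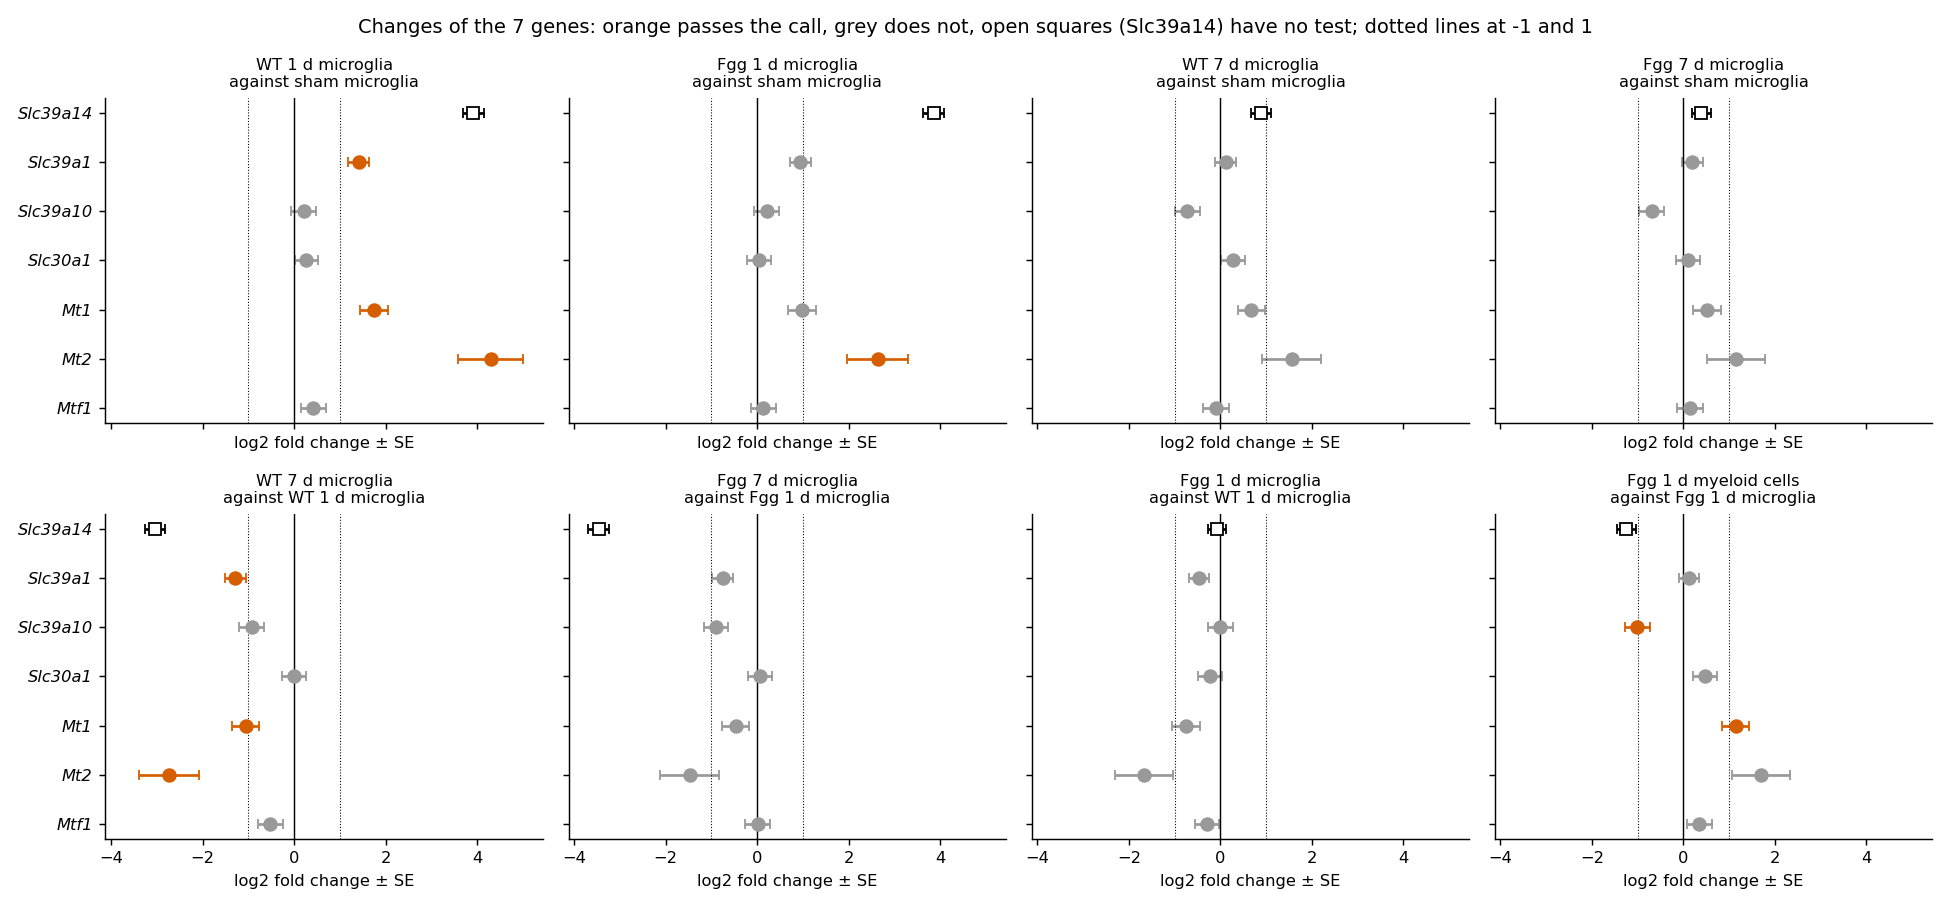
Log2 fold changes with SE (x axis) of the 7 genes in 8 comparisons from the fit of all 21 libraries. Orange points passed the call, grey points did not, open squares mark Slc39a14, which had no test in these comparisons, and dotted lines stand at -1 and 1; Mt2 has the largest called changes, with 4.30 in WT microglia at 1 d against sham and -2.74 at 7 d against 1 d.

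At 7 d the metallothioneins of WT microglia lay between their 1 d and sham values in mean level. Mt1 stood at 87.4, 79.0 and 74.8 CPM in WT and 74.9, 49.8 and 90.8 CPM in Fgg microglia. Mt2 stood at 7.12, 15.4 and 12.5 CPM in WT and 5.56, 6.64 and 14.2 CPM in Fgg microglia. All WT 7 d libraries exceeded the sham libraries in both genes, as did all Fgg 7 d libraries in Mt2. None of these differences passed: in WT the log2 fold change was 0.68 ± 0.30 for Mt1 (edgeR, adjusted p = 0.38) and 1.56 ± 0.65 for Mt2 (adjusted p = 0.32), although Mt2 passed when WT 7 d and sham microglia were fitted alone (1.58, adjusted p = 0.035). None of the 6 tested genes passed against sham at 7 d in either genotype, where 2.02% and 0.663% of all genes passed, and DESeq2 called 0. At an unadjusted p under 0.05 in edgeR there were 3 in WT and 1 in Fgg, against 2783 and 1808 of all 23815 genes.

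From 1 d to 7 d in WT microglia Mt2 fell by 2.74 ± 0.66 on the log2 scale (edgeR, adjusted p = 0.0094) and Mt1 by 1.06 ± 0.30 (adjusted p = 0.029). Together with Slc39a1 they were the 3 of 6 that passed, all downward, against 7.06% of all genes (4.39% downward). Mt2 lost the call without WT 1 d library 3 (-2.23, adjusted p = 0.052), the library highest in both metallothioneins. Mt1 did not hold without WT 1 d library 2 (-1.05, adjusted p = 0.074) or 3 (-0.82, adjusted p = 0.16), nor without WT 7 d library 2 (-1.05, adjusted p = 0.091) or 3 (-1.01, adjusted p = 0.11). The Mt1 call was also lost with DESeq2 and with DESeq2 size factors (both -0.97), with the replicate block (-0.98) and when the 2 groups were fitted alone (-1.09). In Fgg microglia the log2 change of Mt2 was -1.48 ± 0.64 (adjusted p = 0.24) and none of the 6 passed, where 3.54% of all genes did, and none was called by DESeq2. At an unadjusted p under 0.05 there were 3, against 3894 of all 23815 genes.

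Between genotypes at 1 d the metallothioneins were lower in Fgg microglia in every same-numbered pair of libraries. The labels do not say that libraries of the same number belong together. The Fgg to WT ratio of Mt2 was 0.314, 0.336 and 0.303 for libraries 1, 2 and 3, and that of Mt1 was 0.869, 0.552 and 0.517. The nearly constant ratio of Mt2 stands beside a wide spread within each genotype, from 30.4 to 129 CPM in WT and from 9.55 to 38.9 CPM in Fgg, so that the 2 groups overlapped. The log2 difference was -1.67 ± 0.63 for Mt2 and -0.75 ± 0.30 for Mt1, both with an adjusted p of 0.89 in edgeR, and neither passed. With the library number as a block the value for Mt2 was -1.66 (adjusted p = 0.44). None of the 6 genes passed in edgeR, where 0.0546% of all genes did, and DESeq2 called 0. Mt1, Mt2 and Slc39a1 were at an unadjusted p under 0.05, as were 1209 of all 23815 genes. Slc39a14 differed by -0.07 ± 0.20 on the log2 scale between the same groups, a description with no test.

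Marker genes and the share of counts on ribosomal RNA genes also varied between and within the same groups. Library 1 was the lowest in Mt2 and the highest in Ccr2 in each of the 4 groups collected at 1 d. In myeloid cells its Ccr2 was 475 CPM in WT and 483 CPM in Fgg. Without the libraries highest in Ccr2 in the sham and both 1 d microglia groups, Mt2 rose by 4.73 in WT and 3.01 in Fgg microglia and Mt1 by 2.19 and 1.22, all past the call (edgeR, adjusted p from 0.00012 to 0.016), and the genotype difference of Mt2 was -1.73 (adjusted p = 0.81). The dropped libraries of the 1 d microglia were the lowest of their groups in Mt1 and Mt2, and the dropped sham library the highest. Larger rises than with all libraries thus followed from the choice of libraries. Monocyte and endothelial marker sums, like Mt1 and Mt2, had a higher median in WT than in Fgg 1 d microglia and a higher one in both than in sham. The neutrophil marker sum did not follow that order, with medians of 249 CPM in sham, 565 CPM in WT 1 d and 132 CPM in Fgg 1 d microglia. The 9 monocyte and macrophage markers summed to 7.59 to 54.4 CPM in sham, 86.4 to 149 CPM in WT 1 d and 33.6 to 102 CPM in Fgg 1 d microglia, and among them Fn1 was 0.637 to 4.35, 70.3 to 142 and 25.6 to 39.3 CPM. The 6 endothelial markers summed to 28.2 to 31.3 CPM in sham, 56.8 to 103 CPM in WT 1 d and 43.5 to 80.7 CPM in Fgg 1 d microglia, and to 120 to 208 CPM in myeloid cells, while the defining gene Cldn5 was at 0 in all WT 1 d microglia libraries. The share of counts on ribosomal RNA genes was 43.4 to 47.8% in sham. It was 50.6, 57.9 and 58.5% in WT 1 d and 47.1, 49.4 and 52.4% in Fgg 1 d microglia, in the order of Mt2 within both groups. The 10 microglia markers summed to 12224 to 13816 CPM in sham, 4246 to 5942 CPM in WT 1 d and 6028 to 7546 CPM in Fgg 1 d microglia. They did not move as a block: P2ry12 was 169 to 659 CPM in WT and 724 to 1632 CPM in Fgg 1 d microglia, whereas Fcrls was 901 to 1226 CPM in WT and 196 to 281 CPM in Fgg, against 626 to 816 CPM in sham. The distance of these marker genes from the altered Fgg gene was not examined. The 9 astrocyte markers summed to 45.8 to 54.9 CPM in sham, 13.7 to 21.7 CPM in WT 1 d and 17.6 to 23.9 CPM in Fgg 1 d microglia. Most of the sham sum was Slc1a3 (33.3 to 42.8 CPM), while Gfap was higher at 1 d (0.194 to 3.33 CPM) than in sham (0.0251 to 0.127 CPM). The part of these differences in the metallothionein levels was not tested.

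The share of Mt2 in the metallothionein pair was higher in every 1 d microglia library than in any sham library, in a design that could not pass a test. Mt2 made up 10.4, 5.98 and 6.44% of the summed CPM of Mt1 and Mt2 in sham microglia, 24.8, 29.2 and 36.0% in WT 1 d and 10.7, 20.1 and 24.8% in Fgg 1 d microglia. Fgg library 1 was nearly equal to sham library 1. The mean share was 7.61 ± 2.44% in sham, 30.0 ± 5.62% in WT 1 d and 18.5 ± 7.18% in Fgg 1 d, and the highest Fgg and the lowest WT library met at 24.8%. An exact two-sided permutation test gave p = 0.1 for WT against sham, Fgg against sham and Fgg against WT at 1 d, which is the smallest that 3 against 3 allows, and an adjusted p of 0.275 over the 11 comparisons. At 7 d the share was 12.7 ± 4.58% in WT and 10.7 ± 3.41% in Fgg microglia, and in myeloid cells 23.5 ± 10.8% and 23.8 ± 10.7%.

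**Figure D3:**
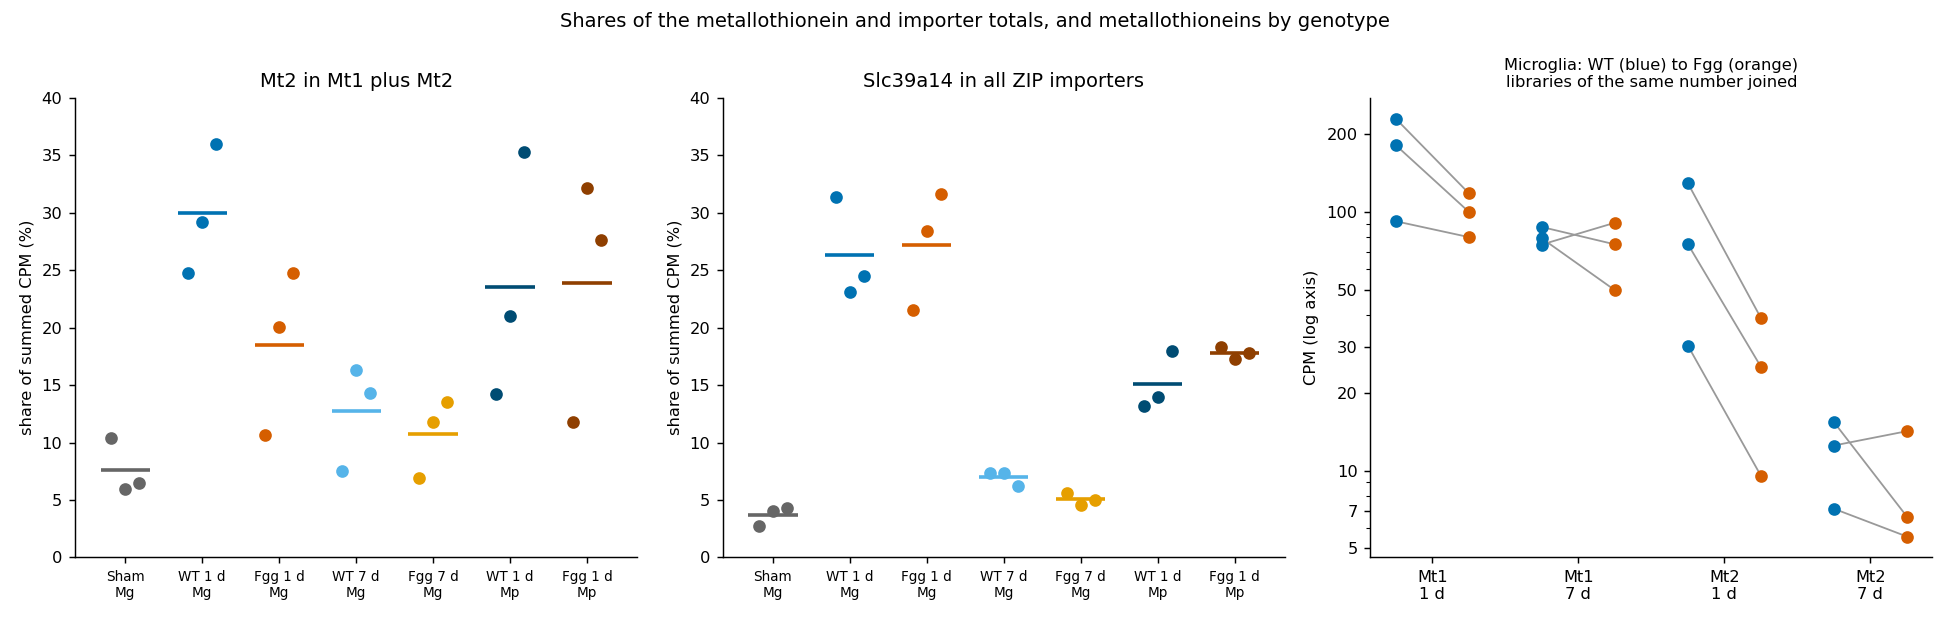
Left and centre, the share (%) of Mt2 in the summed CPM of Mt1 and Mt2 and of Slc39a14 in the summed CPM of the ZIP importers, per library and group, with bars at the means. Right, CPM (log axis) of Mt1 and Mt2 in WT (blue) and Fgg (orange) microglia. Lines join libraries of the same number, a pairing that the labels do not state. All 3 Mt2 lines at 1 d fall in parallel, to between 0.303 and 0.336 of the WT value.

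In infiltrating myeloid cells Mt1 stood at 196, 239 and 214 CPM in WT and 170, 313 and 175 CPM in Fgg, overlapping with WT but not with Fgg 1 d microglia. Mt2 stood at 32.3, 63.4 and 117 CPM in WT and 22.6, 148 and 66.6 CPM in Fgg myeloid cells, a spread as wide as that of 1 d microglia. The genotypes overlapped in both genes and differed by 0.02 ± 0.30 (Mt1) and 0.16 ± 0.61 (Mt2) on the log2 scale, with adjusted p of 1 in edgeR. Leaving out Fgg library 2 turned these to -0.33 and -0.66, and leaving out WT library 1 to -0.05 and -0.19. None of the 6 genes passed between genotypes in myeloid cells, none at an unadjusted p under 0.05 and none by DESeq2. Of all 23815 genes 0.453% passed in edgeR, 2749 had an unadjusted p under 0.05 and DESeq2 called 841.

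Against 1 d microglia of the same genotype, Mt1 was higher in Fgg myeloid cells by 1.14 ± 0.30 on the log2 scale (edgeR, adjusted p = 0.01), where the median over all genes was -0.13. It lost the call without Fgg microglia library 1 (1.01, adjusted p = 0.055) or Fgg myeloid library 2 (0.79, adjusted p = 0.077). Slc39a10 was lower by the smallest margin past the bar (-1.01 ± 0.27, adjusted p = 0.011), and with DESeq2 size factors, under which the median over all genes was -0.01, it was -0.88 and not called. The call of Slc39a10 was also lost with DESeq2 (-0.88), filterByExpr (-0.87), the replicate block (-0.99), the 2 groups fitted alone (-0.88), without the libraries highest in Ccr2 (-0.89), and without Fgg microglia library 2 (-0.86), Fgg myeloid library 1 (-0.89) or Fgg myeloid library 3 (-0.99). Mt2 was 1.70 ± 0.63 higher and not called (adjusted p = 0.063), but passed with DESeq2 (1.81), DESeq2 size factors (1.82), filterByExpr (1.84) and the block (1.70), and without Fgg microglia library 3 (2.19) or Fgg myeloid library 1 (2.24). Mt1 and Slc39a10 were the 2 of 6 to pass, against 16.7% of all genes (6.96% upward and 9.70% downward). In WT none of the 6 passed, none of them at an unadjusted p under 0.05 and none by DESeq2, against 11.9% of all genes. There 6525 of all 23815 genes had an unadjusted p under 0.05 and DESeq2 called 3653. For none of the 6 genes did the genotype difference change with cell type or with time past the threshold (edgeR interaction tests, 0 at an unadjusted p under 0.05, 0 by DESeq2), in tests where 0.0462% and 0% of all genes passed. In the same tests 1994 and 653 of the 23815 genes had an unadjusted p under 0.05, and DESeq2 called 259 and 33.

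Beyond these genes, a list of 30 zinc genes was followed, holding the 14 ZIP importers, the 10 ZnT exporters and Tmem163, 4 metallothioneins and Mtf1. It too was drawn up with earlier results of these data known. Slc39a5, Slc30a8 and Mt4 had at most 1 count in all libraries and were not tested, and Slc39a14 was left out of the counts, which leaves 26. In WT 1 d microglia against sham 4 of the 26 passed upward and 1 downward, against 12.3% of all genes (8.06% upward), and the median log2 change over the 26 was 0.27 against 0.00 over all genes. Besides Slc39a1, Mt1 and Mt2 these were Slc39a6 (ZIP6), up by 1.51 ± 0.35 (edgeR, adjusted p = 0.0047), and Slc39a12 (ZIP12), down by 3.74 ± 1.24 (adjusted p = 0.044). Slc39a6 went from a mean of 16.2 CPM to 32.4, 65.2 and 41.0 CPM, with no overlap. Slc39a12, known chiefly from brain, was low throughout, at 2.52, 3.19 and 2.99 CPM in sham and 0.458, 0.145 and 0.0390 CPM in WT 1 d microglia, and lost the call without any of sham libraries 1 to 3 or WT 1 d libraries 2 and 3 (-3.22 to -3.83, adjusted p from 0.075 to 0.17). In Fgg 1 d microglia 2 of the 26 passed, both upward, against 6.64% of all genes (5.49% upward), with a median of 0.17: Mt2 and Slc39a6, the latter at 1.26 ± 0.35 (adjusted p = 0.025). Slc39a6 lost the call without Fgg library 2 or 3 or sham library 2 or 3 (1.15 to 1.31, adjusted p from 0.054 to 0.1).

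None of the 8 ZnT genes and Tmem163 tested besides Slc30a1 passed against sham at either time, where 12.3% and 6.64% of all genes passed at 1 d and 2.02% and 0.663% at 7 d in WT and Fgg. The largest median levels among them were those of Slc30a9 (21.1 CPM) and Slc30a5 (7.95 CPM), while Slc30a2, Slc30a3 and Slc30a10 had a median of 0.

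At 7 d a single importer passed against sham in edgeR, in WT only. Slc39a4 (ZIP4), the intestinal importer of dietary zinc, was 1.44 to 2.06 CPM in sham, 4.92, 5.12 and 5.68 CPM in WT 7 d and 4.12, 3.66 and 4.34 CPM in Fgg 7 d microglia, with no overlap. The log2 fold change in WT was 1.65 ± 0.41 (edgeR, adjusted p = 0.035), the only call among the 26, whose median was -0.11, where 2.02% of all genes passed. Leaving out any one of the 6 libraries removed it (1.55 to 1.83, adjusted p from 0.055 to 0.16). In Fgg no gene of the 26 passed in edgeR, with 2 at an unadjusted p under 0.05 and a median of -0.08, while DESeq2 called Slc39a4. Of all 23815 genes 0.663% passed there in edgeR, and 1808 had an unadjusted p under 0.05. Slc39a9, Slc39a10 and Slc39a12 also did not overlap with sham at 7 d in either genotype. They lay below sham and did not pass. Both genotypes were set against the same sham libraries, and the share of all genes without overlap was not computed.

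From 1 d to 7 d in WT microglia 7 of the 26 passed, 6 of them downward, against 7.06% of all genes (4.39% downward), with a median of -0.14. The falls were those of Slc39a1, Mt1, Mt2, Slc39a11 (-1.47 ± 0.32, adjusted p = 0.0047), Slc30a6 (-1.16 ± 0.31, adjusted p = 0.02) and Slc39a7 (-1.05 ± 0.19, adjusted p = 0.0011), the latter pair being carriers of the Golgi and the endoplasmic reticulum, and Slc39a4 rose by 1.37 ± 0.41 (adjusted p = 0.037; edgeR throughout). Slc39a1 and Slc39a11 held without any one library. Slc30a6 lost the call without WT 1 d library 2 or 3 or WT 7 d library 2 or 3 (adjusted p from 0.056 to 0.11), Slc39a7 without WT 7 d library 2 (-0.95) and with DESeq2 or its size factors (-0.97), and Slc39a4 without WT 1 d library 1 or 2 or any WT 7 d library (0.98 to 1.39, adjusted p from 0.085 to 0.12), without the libraries highest in Ccr2, or when the 2 groups were fitted alone (1.34). Without WT 7 d library 2 the count fell from 7 to 3. In Fgg microglia 2 passed, against 3.54% of all genes, Slc39a4 upward (1.43 ± 0.41, adjusted p = 0.046) and Slc39a8 (ZIP8) downward (-1.05 ± 0.25, adjusted p = 0.014), with a median of -0.36, and with any one library left out at most 1 listed gene was called. Slc39a8 lost the call with DESeq2 and with its size factors (both -0.94), and Slc39a4 with no filter on counts (1.43) and with the replicate block (1.42).

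**Figure D4:**
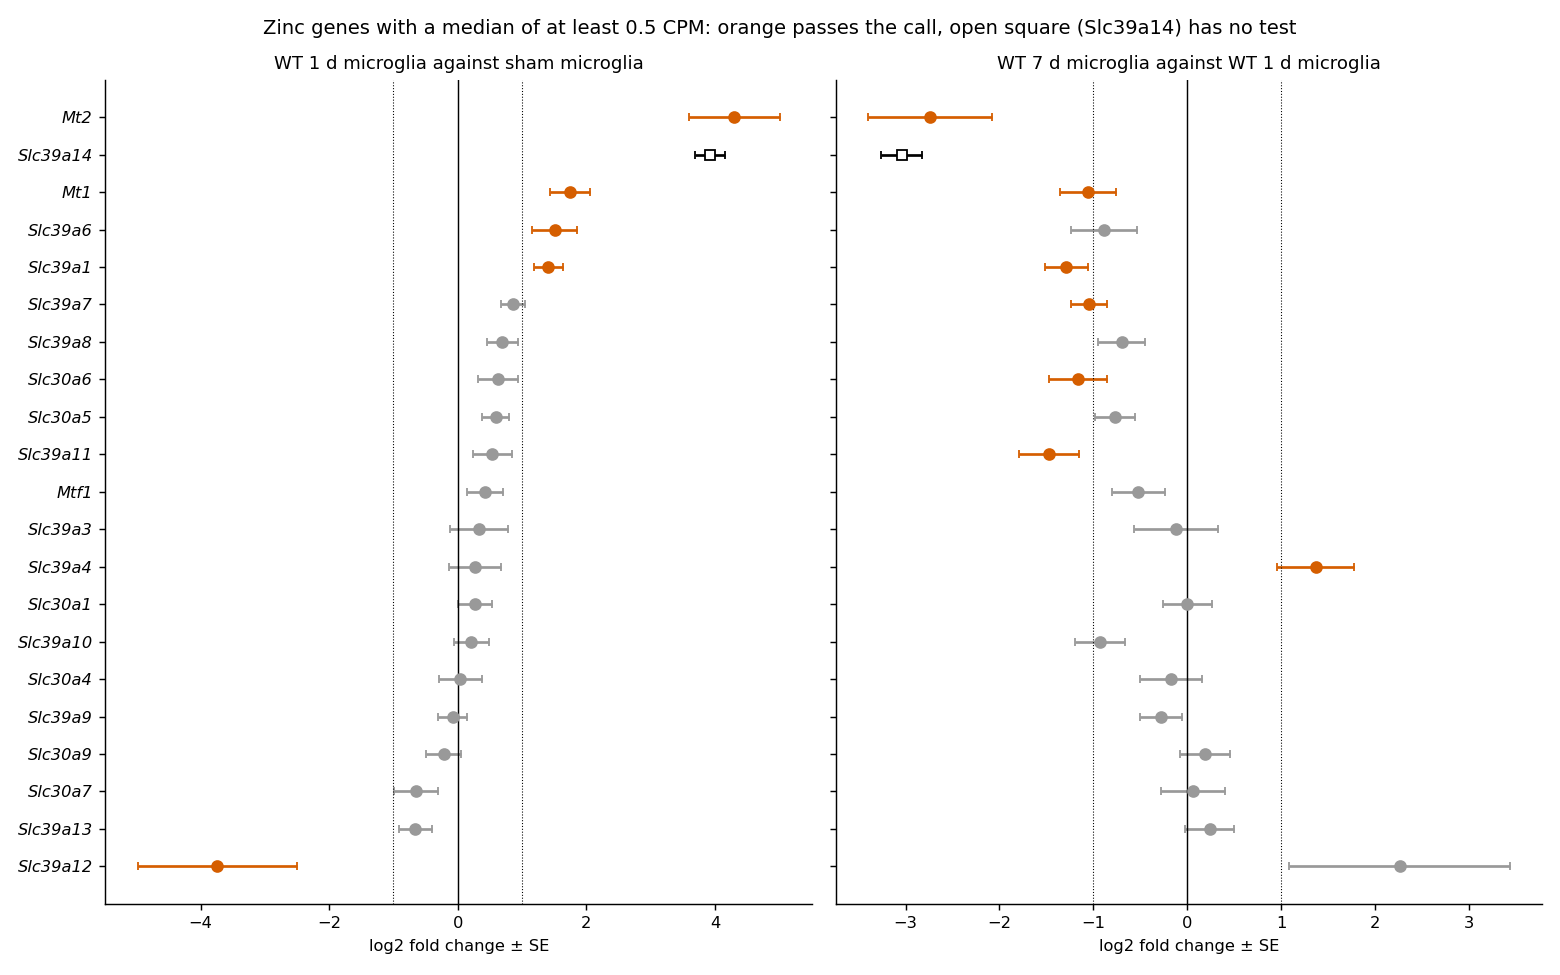
Log2 fold changes with SE (x axis) in WT microglia, 1 d against sham (left) and 7 d against 1 d (right), of the 21 listed zinc genes with a median of at least 0.5 CPM over the libraries, ordered by the left panel. Orange points passed the call and the open square is Slc39a14, with no test. Mt2 lies farthest right among the tested genes at 1 d and farthest left at 7 d, and both panels use the same 1 d libraries.

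Between cell types 2 of the 26 passed in WT and 4 in Fgg, against 11.9% and 16.7% of all genes. Slc39a8 was 14.8, 19.6 and 14.8 CPM in WT and 14.4 to 23.5 CPM in Fgg 1 d microglia but 3.36, 4.16 and 3.61 CPM and 3.79, 2.62 and 5.01 CPM in the myeloid cells. The log2 difference was -2.15 ± 0.26 in WT (edgeR, adjusted p = 8.1e-06) and -2.34 ± 0.26 in Fgg (adjusted p = 2.5e-06), and both held without any one library. In WT, Slc30a4, a vesicular exporter, was the other of 2 calls (-1.61 ± 0.34, adjusted p = 0.0022; median of the 26, -0.31). In Fgg the 4 calls were Mt1, Slc39a10, Slc39a8 and Slc39a13, the last lower by 1.53 ± 0.27 (adjusted p = 4e-04; median of the 26, -0.46). Slc39a13 (ZIP13) was 6.19, 9.37 and 6.90 CPM in WT and 3.61, 3.82 and 2.86 CPM in Fgg myeloid cells. Between genotypes 0 of the 26 passed in any cell type or at any time in edgeR, with 3, 1 and 3 at an unadjusted p under 0.05 in 1 d microglia, 7 d microglia and myeloid cells, and DESeq2 called 0, 0 and 2 (Slc39a13 and Slc39a4). Of all 23815 genes 13, 9 and 108 passed in edgeR and 1209, 795 and 2749 had an unadjusted p under 0.05. DESeq2 called 104, 80 and 841 of all genes. The medians over the 26 were -0.10, 0.01 and -0.01.

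Over the 21 libraries, which share groups and sort, the genes whose log2 CPM followed Slc39a14 most closely among 12302 genes with a mean of at least 1 CPM were Ipo5 (Pearson r = 0.972), Hat1 (0.970), Hspd1 (0.967), Eef1g (0.966) and Shmt2 (0.962). Among the other zinc genes described, r with Slc39a14 was 0.870 for Slc39a1, 0.750 for Mt2, 0.676 for Mt1, 0.396 for Mtf1, 0.379 for Slc39a10 and 0.278 for Slc30a1. Mt1 was followed most closely by Snx3 (0.960), Anxa5 (0.956), Tceal9 (0.956), Clic4 (0.951) and Tbca (0.951), and Mt2 came 109th (0.922). The 2 metallothioneins were thus closer to each other than either was to Slc39a14. These are descriptions over 7 groups of 3 libraries, with no test.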

How the data were processed

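Salmon scaled gene counts were deposited by the authors for 45706 genes in 21 libraries. Per the labels and the study's methods, paired-end reads of amplified total RNA (Ovation V2) were mapped to GRCm38 with nf-core/rnaseq 3.0 and salmon 1.4.0, and the submitters' processing notes name R 4.2.0 and DESeq2 1.36.0. These expected counts were taken to be abundances scaled to the library size, with gene length divided out, although the option used is not given in the sources used here, and they were rounded to whole numbers. Gene symbols and positions came from GENCODE M21 (45143 IDs matched, 563 did not). The kit does not mark strand, so overlapping genes on opposite strands cannot be told apart. One edgeR 4.0.16 quasi-likelihood fit (R 4.3.3, TMM) of all 7 groups used the 23815 genes with at least 5 counts over all libraries, without covariates, and p-values were adjusted by Benjamini-Hochberg over these genes. A gene was called at an absolute log2 fold change above 1 with an adjusted p under 0.05 (under 0.1 between genotypes), and for interactions at an adjusted p under 0.1. In a test on simulated data for WT 1 d microglia against sham, 125 of 200 genes changed by 2 on the log2 scale were recovered among 23815, with 2 others called. Shares were compared by exact permutation tests (scipy). Replicate libraries differed by more than sampling noise (chi-square per degree of freedom at least 18.6 in all 21 pairs). Libraries of the same number deviated together (every pair's correlation at least 0.104) only between Fgg and WT 1 d microglia.

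The 7 genes, the zinc list and the marker lists were chosen with earlier results of these data known, and the text names the 7 genes in every comparison and other listed genes where called. Alternatives were the DESeq2 1.42.0 Wald test, DESeq2 size factors, other count filters, removal of ribosomal RNA genes, a replicate block, a fit of the compared groups only, no bar on the fold change and leaving out each library. The set without the libraries highest in Ccr2 was added after seeing the data.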

Additional observations from a re-analysis of the deposited data

How the results depend on the processing

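Of 889 values recomputed under the alternatives, 762 kept their direction and their side of the threshold or moved by less than the replicate spread, 90 no longer passed or fell in number, 17 newly passed, 16 moved further and 4 changed sign. Of the 511 from settings other than leaving out a single library, 467 were unchanged in this sense and none changed sign. The number of listed zinc genes called was 5 in WT 1 d microglia against sham, 7 in WT microglia at 7 d against 1 d and 4 in Fgg myeloid cells against microglia, and stayed within 1.5 times of these under every setting other than leaving out a library. In Fgg 1 d microglia against sham it was 2, and 6 with no bar on the fold change and 4 without the libraries highest in Ccr2. In WT 7 d microglia against sham it was 1, and 2 with the compared groups only, and in Fgg 7 d against sham 0, and 1 with DESeq2. In Fgg microglia at 7 d against 1 d it was 2, and 1 with DESeq2, with DESeq2 size factors, with no filter and with the replicate block. Between genotypes in myeloid cells it was 0, and 2 with DESeq2 and 1 with filterByExpr, and in WT myeloid cells against microglia 2, and 4 with no bar. The replicate block removed the calls of Mt1 in WT 7 d against 1 d (-0.98), Slc39a10 in Fgg myeloid cells against microglia (-0.99) and Slc39a4 in Fgg 7 d against 1 d (1.42), and added that of Mt2 in Fgg myeloid cells against microglia (1.70). Between WT and Fgg 1 d microglia, the pair of groups in which every same-numbered pair of libraries correlated above 0.1, the block changed no call of a zinc gene. Over all groups 6 of 63 such pairs did. Leaving out one library gave 4 to 5 calls in WT 1 d, 0 to 5 in Fgg 1 d, 0 in WT 7 d and 0 in Fgg 7 d against sham, 3 to 7 in WT and 0 to 1 in Fgg at 7 d against 1 d, 2 in WT and 3 to 5 in Fgg myeloid cells against microglia, and 0 in every genotype comparison and interaction. The 4 sign changes were those of Mt1 (-0.33 and -0.05, range -0.33 to 0.22) and Mt2 (-0.66 and -0.19, range -0.66 to 0.73) between genotypes in myeloid cells, without Fgg library 2 and WT library 1, where neither was called. The cause of these shifts was not tested.

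Over all genes, DESeq2 called 820 against 481 in edgeR in WT and 347 against 158 in Fgg 7 d microglia against sham, 104 against 13, 80 against 9 and 841 against 108 between genotypes (1 d, 7 d and myeloid cells), and 33 against 0 and 259 against 11 for the interactions with time and cell type. With the compared groups only, 85, 8, 19, 7 and 0 genes were called in Fgg 7 d against sham, the genotype comparisons and the cell type interaction, and 2211 against 3967 in Fgg myeloid cells against microglia. Between genotypes in myeloid cells filterByExpr gave 176 and the block 66, and with no bar Fgg 7 d against 1 d gave 1343 against 844. With DESeq2 size factors 1059 genes were higher and 418 lower in Fgg 1 d microglia against sham, where the TMM fit had 1308 and 274, and 1195 and 464 with the compared groups only. Fitting the compared groups only turned the split in myeloid cells against microglia, from 1657 higher and 2310 lower to 1493 and 718 in Fgg and from 1337 and 1502 to 1443 and 907 in WT. DESeq2 turned that of WT 7 d against 1 d from 637 and 1045 to 1280 and 1132, and moved WT 1 d against sham from 1920 and 1003 to 2004 and 1872, Fgg 1 d against sham to 1332 and 796, and Fgg 7 d against 1 d from 158 and 686 to 468 and 741. Depth limits the zinc genes listed near 0, since 3 counts are up to 0.158 CPM.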
